A study of Mus musculus with 2 samples.

Results

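The 10 genes described here encode transcription factors of the AP-1 and Egr groups and proteins made in the same early response: Fos, Fosb, Fosl2, Jun, Junb, Jund, Egr1, Atf3, Ier2 and Dusp1. They were chosen by symbol, matched 10 of the 55536 annotated genes, and have 30 annotated transcripts. Total RNA of whole adrenal gland from female B6CASTF1/J mice aged 2 months, an F1 cross between C57BL/6J and CAST, was reduced in ribosomal RNA and sequenced. The labels name no treatment, and the mice form 1 group with 2 biological replicates, called animal 1 and animal 2. The labels conflict on the mice: the library text gives both samples the same animal number and the biosample text gives different ones. Each library was made from 300 ng of RNA, and the libraries held 34517566 and 36234838 expected counts. With 1 group there was no test between conditions, so the animals are set side by side with no p-value, and a gap between them is the spread between replicates, technical or biological. Intervals and floors cover counting error only, since reads of amplified libraries are not independent molecules.

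Immediate early genes are switched on within minutes of a signal by transcription factors that already sit in the cell, so no new protein is needed first. Fos and Jun proteins pair through leucine zippers to form AP-1, which binds DNA as a dimer. Jun proteins can pair with each other, whereas Fos proteins need a Jun partner. Egr1 binds GC-rich DNA through zinc fingers, and Dusp1 removes the phosphates that activate MAP kinases. In the adrenal cortex, corticotropin acts through cyclic AMP, and in the medulla, nerve stimulation acts through calcium; both routes are known to reach the factors that turn these genes on. The mRNAs of Fos and Egr1 are short-lived, so a level in whole tissue is a momentary value. In bulk tissue, fewer cells of a type and less RNA per cell cannot be told apart.

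Promoter sequences are shown for 5 genes, because the genes that differed most between the animals went in opposite directions: Fos, Jun and Dusp1 were higher in animal 1, and Fosb and Junb in animal 2. RefSeq sequences on GRCm38.p6 (the same assembly as mm10) were available for 8 of the 10 genes, and not for Egr1 and Ier2. The 250 bases before the RefSeq start are given 5′ to 3′ on the gene's strand. Capitals mark TGACG, the half-site of the cyclic AMP response element, read on either strand, and in Jun the AP-1-like letters TGACATCA.
Fos, chr12:85473640-85473889, plus strand: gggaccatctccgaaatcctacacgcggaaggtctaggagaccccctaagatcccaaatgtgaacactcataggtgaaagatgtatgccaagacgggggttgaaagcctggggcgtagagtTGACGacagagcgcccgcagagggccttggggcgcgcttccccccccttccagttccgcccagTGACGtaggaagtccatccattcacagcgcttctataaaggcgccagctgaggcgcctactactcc
Dusp1, chr17:26508473-26508722, minus strand: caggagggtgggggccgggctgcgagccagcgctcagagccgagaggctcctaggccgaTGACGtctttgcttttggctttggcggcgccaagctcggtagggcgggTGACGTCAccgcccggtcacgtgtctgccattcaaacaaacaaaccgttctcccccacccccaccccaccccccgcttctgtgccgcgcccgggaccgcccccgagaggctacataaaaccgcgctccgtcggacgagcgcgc
Jun, chr4:95052223-95052472, minus strand: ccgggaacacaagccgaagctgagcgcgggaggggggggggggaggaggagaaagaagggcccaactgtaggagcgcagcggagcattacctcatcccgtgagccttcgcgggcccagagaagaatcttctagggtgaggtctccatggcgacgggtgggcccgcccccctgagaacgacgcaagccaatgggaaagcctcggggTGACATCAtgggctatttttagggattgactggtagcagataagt
Fosb, chr7:19310046-19310295, minus strand: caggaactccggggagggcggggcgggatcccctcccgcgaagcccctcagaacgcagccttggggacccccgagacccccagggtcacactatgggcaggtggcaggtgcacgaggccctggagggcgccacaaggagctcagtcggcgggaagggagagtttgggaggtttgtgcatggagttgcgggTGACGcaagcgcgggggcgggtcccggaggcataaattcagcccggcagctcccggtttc
Junb, chr8:84978749-84978998, minus strand: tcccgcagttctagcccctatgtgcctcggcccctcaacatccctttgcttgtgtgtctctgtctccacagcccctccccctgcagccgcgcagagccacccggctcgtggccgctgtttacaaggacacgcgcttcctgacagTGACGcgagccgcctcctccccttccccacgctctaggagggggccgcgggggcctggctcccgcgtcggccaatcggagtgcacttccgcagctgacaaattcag

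The letters TGACG stood in 5 of the 8 promoters (Fos, Dusp1, Fosb, Junb and Atf3) and in 17.8% of all 32851 promoters of the same length. They occurred in genes of either direction: Fos held them 66 and 129 bases before its start, Fosb 60 bases and Junb 106 bases before theirs. Dusp1 held the full element TGACGTCA, which contains TGACG on both strands, 143 bases before its start, as did 1.55% of all promoters. TGACATCA, 45 bases before the Jun start, stood in 2.93% of all promoters, and in 1 of the 8. A TATAAA box was found 33 bases before the Fos start and in 12.4% of all promoters. The Egr letters GCGNGGGCG stood in Fosb and Fosl2 and in 4.70% of all promoters. TGANTCA, a loose form of the AP-1 site with any base at N, was in 0 of the 8 and in 6.75% of all. The CArG box, which serum response factor binds, was in 0 of the 8 windows and in 1.47% of all. These are matches of letters in short windows. The RefSeq starts of the printed genes lay within 30 bases of a GENCODE M21 start. For Dusp1 that was the start of Dusp1-206, while Dusp1-202, its main transcript, starts at 26508519, inside the printed window. Of the promoters searched but not printed, the Atf3 start lay 7 bases from an M21 start. The Fosl2 and Jund starts lay 299 and 1210 bases from one, so their windows may miss the promoters of the annotated transcripts.

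Levels fell into a high and a low tier. TPM, a length-scaled share of the library's transcripts, summed over the 10 genes to 290.4 ± 8.70 (SD, n = 2), of which Fosl2, Jund and Jun took 83.9% in animal 1 and 81.7% in animal 2. The other 7 genes together made 45.7 and 54.3 TPM.

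Of the Jun proteins, which carry AP-1 on their own or with a Fos partner, Jund had the highest level. Jund had 74.7 TPM in animal 1 and 74.4 TPM in animal 2 (mean 74.5 ± 0.219, n = 2), ranking 774 of 22015 nuclear protein-coding genes. Its values were almost the same in the 2 glands. JunD is known as the Jun protein that most cells make without stimulation. Jun had 61.1 and 47.6 TPM (mean 54.3 ± 9.49), so the gland of animal 1 had more. Junb had 6.5 and 12.8 TPM (mean 9.67 ± 4.48), and here the gland of animal 2 had more. JunB can restrain c-Jun when the 2 proteins are made together. Within the family, Jund made 52.5% and 55.2% of TPM, Jun 42.9% and 35.3%, and Junb 4.57% and 9.52%.

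Among the Fos proteins, Fosl2, which encodes Fra-2, was far above the rest. Fosl2 had 103 TPM in animal 1 and 120.3 TPM in animal 2 (mean 111.6 ± 12.3, n = 2), ranking 487 among nuclear protein-coding genes. These values cover all its transcripts. Fosl2-201, the coding one, had 89.0 TPM in animal 1 and 82.9 TPM in animal 2, and the rest was in transcripts annotated as retained introns. As a whole gene, Fosl2 took 91.3% of the Fos family in animal 1 and 89.9% in animal 2. Fosb had 7.21 and 11.98 TPM, or 6.40% and 8.95% of the family. Fos itself, the founding member and the usual marker of recent stimulation, had 2.04 and 1.08 TPM from 126 and 65 counts, or 1.81% and 0.807% of the family. Fosl1, which encodes Fra-1 and is not among the 10, had 31 and 25 counts and under 1 TPM in both glands. Jun over Fos family TPM was 1.26 in animal 1 and 1.01 in animal 2. The Fos family sum includes Fosl2-202 and Fosl2-203, the retained-intron transcripts of Fosl2, which have no coding sequence. Fosl2-202 had 4.92 TPM in animal 1 and 6.26 TPM in animal 2, and Fosl2-203 had 8.96 and 31.1 TPM. The gap in this ratio is therefore not one of coding mRNA alone. Fosb stood above Fos 3.53-fold in animal 1 and 11.1-fold in animal 2.

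**Figure D1:**
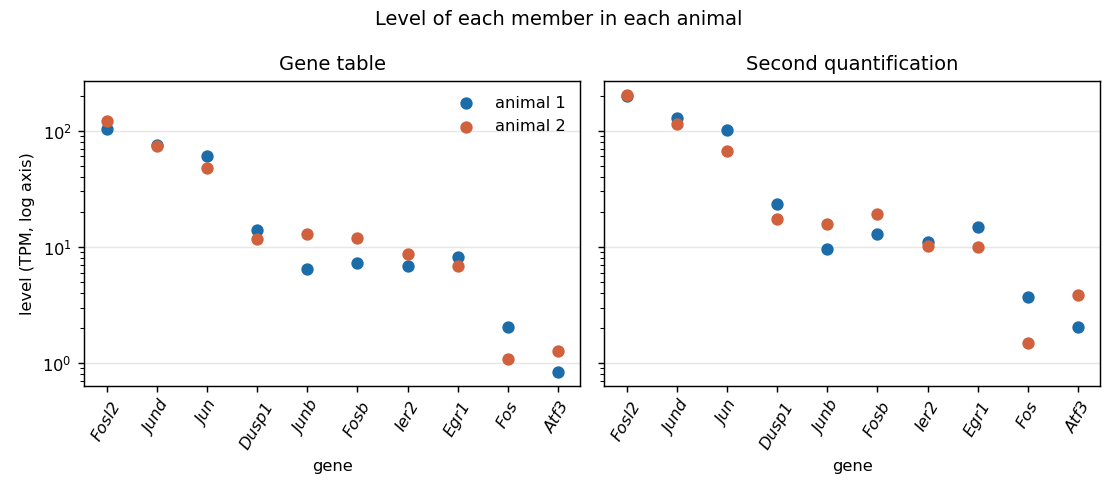
Level of each of the 10 genes in animal 1 (blue) and animal 2 (orange), in TPM on a log axis, in the gene table (left) and in the second deposited quantification (right). Each point is 1 library. Fosl2, Jund and Jun lie above 40 TPM in both panels, and Fos and Atf3 lowest.

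**Figure D2:**
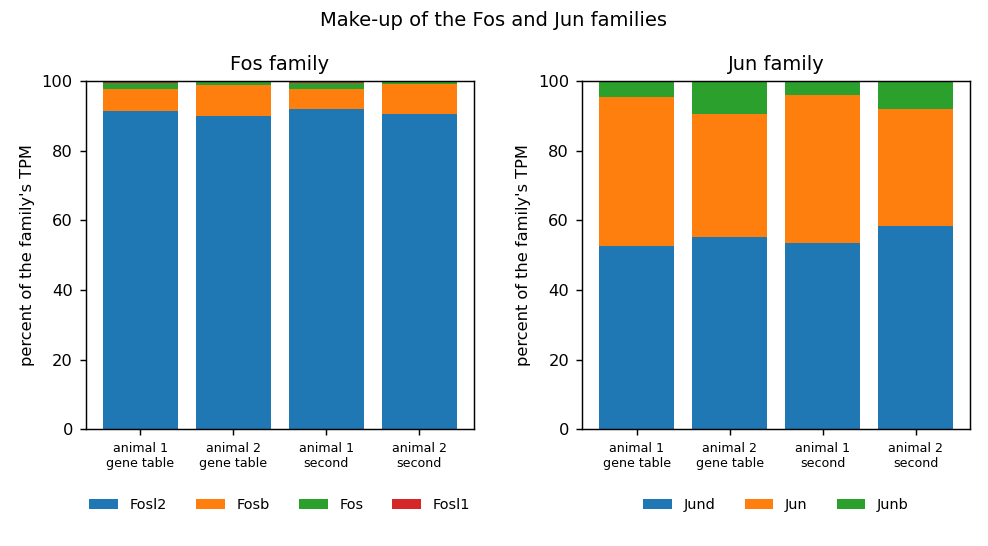
Percent of the summed TPM of the Fos family (left) and Jun family (right) held by each gene, for each animal in the gene table and in the second quantification. Fosl2 fills about 90% of the Fos bars in all 4, and Junb takes a larger part in animal 2 than in animal 1.

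Outside the Fos and Jun families, mean levels ran from 1.05 TPM (Atf3) to 12.8 TPM (Dusp1). Dusp1, the MAP kinase phosphatase that glucocorticoids also induce, had 14.0 and 11.6 TPM (mean 12.8 ± 1.70, n = 2). Egr1, the zinc finger factor, had 8.23 and 6.88 TPM (7.56 ± 0.955). Both were higher in animal 1. Ier2, a small nuclear protein of the early response, had 6.87 and 8.64 TPM (7.76 ± 1.25). Atf3, a stress-induced factor that can pair with Jun proteins, had 0.830 and 1.26 TPM from 55 and 74 counts. Atf3 reached 1 TPM in animal 2 only, and the other 9 did so in either gland. In order of mean TPM, Junb and Fosb, and Ier2 and Egr1, lay closer to each other than the SD of either.

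The second quantification gave the same 3 leading genes in the same order and higher TPM for all 10, by 1.30-fold for Junb to 2.82-fold for Atf3. Its summed level was 485 ± 31.9 TPM. Fosl2 had 199 and 203 TPM there, Jund 129 and 115.0, and Jun 102 and 66.6. The coding transcript Fosl2-201 alone had 139 TPM in animal 1 and 104 TPM in animal 2 there. The rows that share the fixed TPM total differed too: 7SL RNA genes alone accounted for 33.1% and 20.4% of gene-level TPM in animals 1 and 2.

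On mm10 with GENCODE M21, Fos (ENSMUSG00000021250.13) lies on chromosome 12 from 85473890 to 85477273, Fosb (ENSMUSG00000003545.3) on chromosome 7 from 19302696 to 19310051 and Fosl2 (ENSMUSG00000029135.10) on chromosome 5 from 32135801 to 32157842. Jun (ENSMUSG00000052684.4) lies on chromosome 4 from 95049034 to 95052222 and Jund (ENSMUSG00000071076.6) on chromosome 8 from 70698949 to 70700616, each as 1 exon. Junb (ENSMUSG00000052837.6) and Ier2 (ENSMUSG00000053560.4) are also on chromosome 8, from 84974484 to 84978718 and from 84661331 to 84662852. Atf3 (ENSMUSG00000026628.13) lies on chromosome 1 from 191170296 to 191218039 and Dusp1 (ENSMUSG00000024190.7) on chromosome 17 from 26505590 to 26562128. Values are sums over the annotated transcripts of a gene, including those annotated as retained introns. Jun and Jund overlap antisense genes on the other strand, Junos with 40 and 44 counts and Gm11175 with 25 and 13. The library kit named in the labels keeps strand, but the sources used here do not say whether counting used strand. Prdx2 and Ergic1 overlap only transcripts of Junb and Dusp1 that had 0 counts in the gene table's own transcript table.

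The animals were then compared gene by gene with counts scaled by the trimmed mean of M-values. The early genes did not move as 1 block: Fos, Jun, Dusp1 and Egr1 had more in animal 1, and Junb and Fosb had more in animal 2. Atf3 and Ier2 also had more in animal 2 by scaled counts, but neither gap was settled. Jund and Fosl2 had small gaps. The largest gaps were those of Fos, 1.95-fold higher in animal 1 (95% interval 1.44 to 2.69), and Junb, 1.84-fold higher in animal 2 (1.63 to 2.09). Fosb was 1.59-fold higher in animal 2 (1.45 to 1.75), so Fos and its close relative lay on opposite sides.

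Fos had 126 counts in animal 1 and 65 in animal 2, Junb 389 and 725, and Fosb 731 and 1177. Jun had 6598 and 4861 counts, a 1.37-fold excess in animal 1 (1.32 to 1.42). Dusp1 had 896 and 667 counts, a 1.36-fold excess there (1.23 to 1.503). These gaps were outside counting error. Egr1 had 893 and 707 counts, 1.28-fold higher in animal 1 (1.16 to 1.41). Ier2 had 342 and 406 counts, 1.17-fold higher in animal 2 (1.01 to 1.36). Atf3 was 1.33-fold higher in animal 2 with an interval from 0.926 to 1.92, so its gap was not detectable at this depth. Fosl2, at 21120 and 19985 counts, and Jund, at 4098 and 3854, were each 1.07-fold higher in animal 1 by scaled counts.

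The gaps were then read against those of all genes. Among the 12171 genes averaging 100 counts or more, 1.37% were over 2-fold apart (0.583% toward animal 2 and 0.789% toward animal 1) and 5.68% over 1.5-fold. In the second quantification these shares were 1.37% and 6.07%. Of the 10 members, 8 had that many counts (Fos at a mean of 95.5 and Atf3 at 64.5 did not); 0 of the 8 were over 2-fold apart, and 2 of the 8, Fosb and Junb, were over 1.5-fold. Those were both higher in animal 2, where 2.43% of all genes passed 1.5-fold, against 3.25% toward animal 1. Ordered from the highest ratio in animal 2, Junb ranked 99 and Fosb 205 of 12171. From the other end, Jun ranked 752, Dusp1 824 and Egr1 1274. The 8 members had a median log2 ratio (animal 2 over 1) of -0.10, and all genes one of -0.01. The common biological coefficient of variation between the libraries was 0.172, as estimated with edgeR.

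The sign of the ratio was the same under all 7 settings for Fos, Jun, Egr1 and Dusp1 (higher in animal 1) and for Junb, Fosb and Atf3 (higher in animal 2). Ier2 kept its sign too, but its log2 ratio was 0.03 by the counts of the second quantification (326 and 344), and its TPM there was higher in animal 1 (10.98 and 10.1). The direction of Ier2 was therefore not settled. Fosl2 and Jund did not keep their sign. With ERCC spike-in scaling, which moved the log2 ratio of every gene up by 0.20 and so the members' median to 0.10, their log2 ratios were 0.11 and 0.10, against -0.10 for each with the main scaling. Both lie below that shift, so relative to all genes neither changed side there. With TPM, which moved the median log2 ratio of all genes by 0.10 but not each gene by the same amount, Fosl2 was at 0.23 and Jund at -0.01. Relative to all genes, Fosl2 alone therefore changed side. The mean length that the gene table gives Fosl2 was 5970 bases in animal 1 and 5129 in animal 2, so fewer counts in animal 2 made a higher TPM. Over 2-fold, ERCC scaling added Junb (log2 ratio 1.09), and the second quantification added Fos (-1.13).

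**Figure D3:**
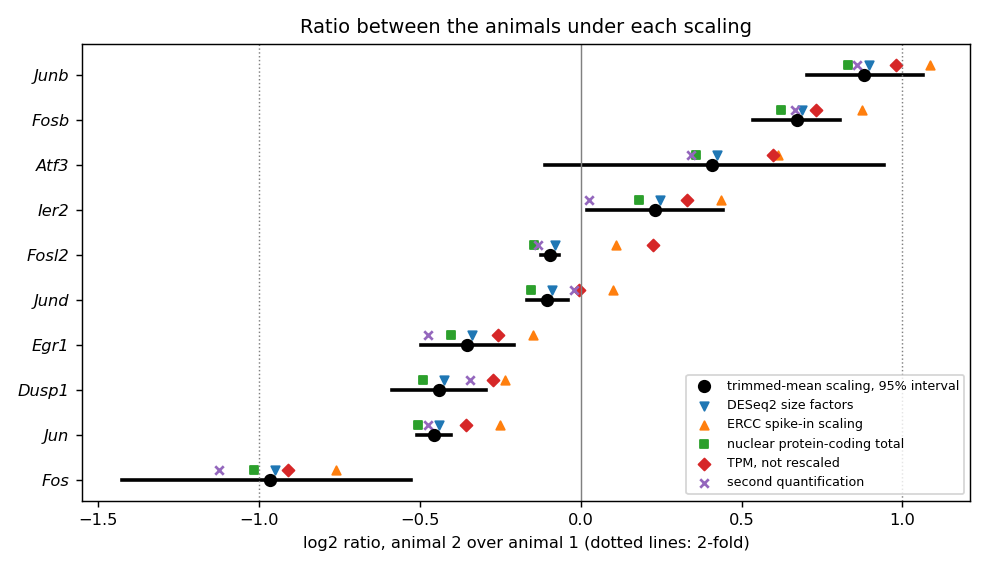
Log2 ratio of animal 2 over animal 1 for each of the 10 genes. Black points are trimmed-mean scaled counts with the exact 95% counting interval, the small symbols are other scalings, TPM and the second quantification, and dotted lines mark 2-fold. Junb, Fosb, Atf3 and Ier2 lie right of 0 and Fos, Jun, Dusp1 and Egr1 left of 0 under every setting drawn, Ier2 at 0.03 in the second quantification, while Fosl2 and Jund cross it.

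The transcripts of Fosl2 were made in different proportions in the 2 glands. Fosl2-201, the mRNA of 6537 bases that codes for the protein, made 86.5% of the gene's TPM in animal 1 and 68.9% in animal 2. The remainder was in Fosl2-202 and Fosl2-203, which are annotated as retained introns and have no coding sequence. Their joint share was 13.5% in animal 1 and 31.1% in animal 2, a difference of 17.6 percentage points. Fosl2-203 alone had 8.71% and 25.9%. In counts, the retained-intron transcripts held 1084 of 21120 in animal 1 and 2349 of 19985 in animal 2, or 5.13% and 11.8%.

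The second quantification put the retained-intron share of Fosl2 at 30.1% and 48.8%, a difference of 18.8 points. This share was examined after values were seen. Across the 7002 genes with at least 100 mean counts and an annotated retained-intron transcript, the share was over 10 points higher in animal 2 in 9.31% by the first quantification and in 11.9% by the second. By the first, 652 genes were that much higher in animal 2 and 322 in animal 1, and the median difference was 0.50 points. For 228 of them the difference was larger than for Fosl2. For Dusp1 the share went the other way, from 21.5% to 15.5% (24.6% to 17.6% in the second quantification), and for Fosb it was under 1% throughout. Total RNA holds unspliced RNA, so these shares include nuclear precursor RNA that was not told apart here.

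Fosb has 7 annotated transcripts, and 6 of them either keep or splice out an internal intron of 140 bases on chromosome 7 from 19305007 to 19305146. Its removal is known to shift the reading frame and to give the short protein ΔFosB, which lacks the C-terminal activation region and is long-lived. Fosb-206, with this intron spliced out, codes for 237 codons, and Fosb-201, which keeps it, for 338. Fosb-207, which also lacks it, codes for 201. Transcripts without the intron, Fosb-206 and Fosb-207, made 71.6% of Fosb TPM in animal 1 and 61.4% in animal 2. Those that keep it in a coding transcript made 27.7% and 38.1%, or 255 and 553 counts. In the second quantification the spliced share was 70.5% and 63.8%. By TPM, the spliced forms were ahead in both glands and a larger share kept the intron in animal 2. By counts, which do not correct for the short Fosb-206, the spliced and intron-keeping forms had 469 and 255 in animal 1 and 616 and 553 in animal 2. In the second quantification they had 454 and 319 counts in animal 1 and 597 and 678 in animal 2, so by these counts the intron-keeping forms were ahead in animal 2. Shares of single transcripts were less certain, since Fosb-207 led with 47.4% and 39.0% in one quantification and had 36.4% and 24.5% in the other.

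**Figure D4:**
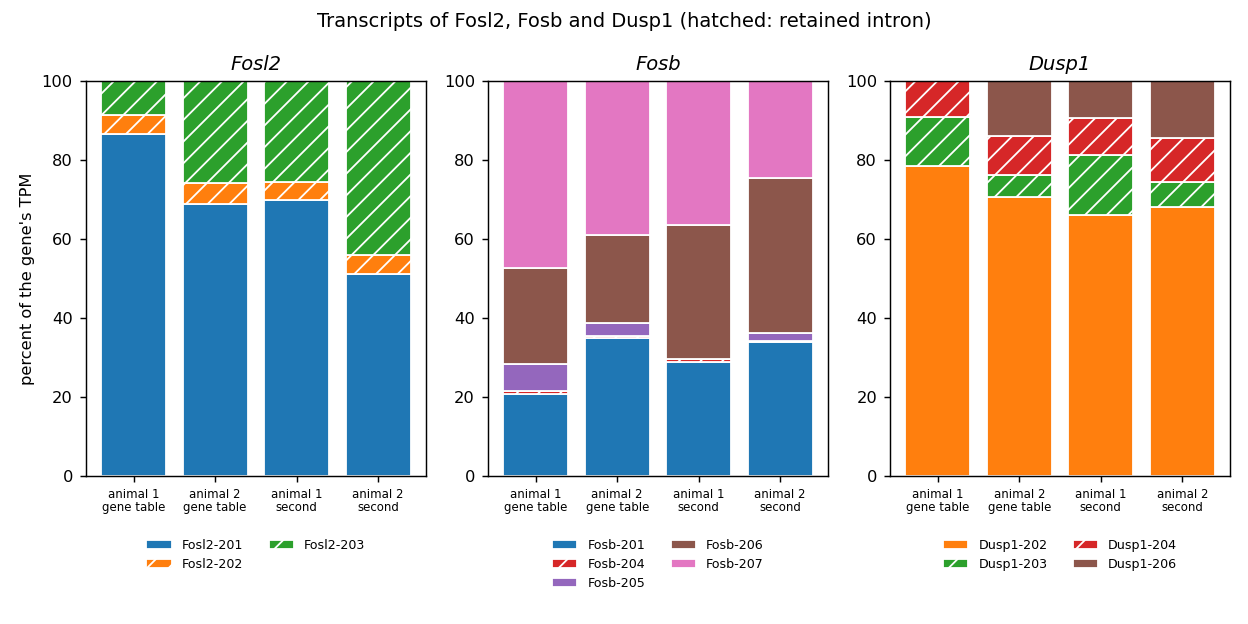
Percent of the TPM of Fosl2, Fosb and Dusp1 held by each transcript, per animal in the first transcript table and in the second quantification. Hatched parts are retained-intron transcripts. The hatched part of Fosl2 is larger in animal 2 in both quantifications (13.5% to 31.1% and 30.1% to 48.8%).

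The other multi-exon genes were simpler or less certain. Egr1 was made mostly as Egr1-202 (88.5% and 87.9%), which encodes the same number of codons, 533, as Egr1-201. Fos-201, the coding mRNA, held 81.4% and 85.4% of Fos. Atf3-201 held 100% and 93.2% of Atf3 in the first table, against 0% and 35.8% in the second, so with 55 and 74 counts its forms could not be resolved. Dusp1-202 held 78.5% and 70.6%. Jun, Junb, Jund and Ier2 were each measured as 1 transcript without introns.

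The next lists hold genes that act with the members. None of these lists has a test, so counts and medians are given beside the all-gene median of -0.01. Of all genes, 5.68% were over 1.5-fold apart and 1.37% over 2-fold. Of 17 AP-1 relatives (Atf, Maf, Batf and related factors), 13 had 100 mean counts, 8 of them higher in animal 2, and 0 passed 1.5-fold, with a median log2 ratio of 0.21 (0.07 in the second quantification). Atf4, a factor of the integrated stress response, had 100.6 and 127 TPM, and Jdp2, a repressor that binds Jun, 5.70 and 7.67 TPM, 1.37-fold higher in animal 2. The Egr relatives Egr2, Egr3 and Egr4 were at 0.63 TPM or less, and their corepressors Nab1 and Nab2 at 17.5 and 18.2 TPM and at 5.47 and 5.85 TPM.

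Upstream genes were present throughout: all 21 kinases and SRF, TCF and CREB factors reached 1 TPM in both libraries, and 0 were over 1.5-fold apart (median 0.06). Prkaca, the catalytic subunit of protein kinase A, had 94.7 and 113 TPM, and Crem, a cyclic AMP-responsive modulator, 92.3 and 109 TPM. Of the 11 other dual-specificity phosphatases, 8 had enough counts, and 1 passed 1.5-fold, Dusp10, which acts on JNK and p38 (1.66-fold higher in animal 2, 290 and 487 counts). Dusp6, another MAP kinase phosphatase, had the highest level of that list, at 52.8 and 50.8 TPM. It was 1.24-fold higher in animal 1, as Dusp1 was.

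Of 26 other immediate early genes with enough counts, 15 had more in animal 2 and 11 had less (median 0.15). Of these, 5 were over 1.5-fold apart and 4 of those over 2-fold, where 5.68% and 1.37% of all genes were. Nr4a1, an orphan nuclear receptor that corticotropin induces, had 64.8 and 194 TPM, 2.85-fold higher by counts in animal 2. Sik1, a kinase that cyclic AMP induces and that is named after its values were seen, was 2.47-fold higher there, and Rgs2, which restrains G protein signals, 2.25-fold. Socs3, a feedback inhibitor of cytokine signals, was 2.65-fold higher in animal 1 from 237 and 90 counts. Ccn1, a matrix protein also named after its values were seen, was 1.66-fold higher in animal 2. Junb and Fosb had the direction of Nr4a1, Sik1 and Rgs2, and Fos and Egr1 that of Socs3. These genes were named for high levels or large gaps, and the list itself was split 15 to 11. No shared response is read from them.

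Heat shock and stress chaperones had 9 of 10 genes higher in animal 2, with a median of 0.55. Of the 10, 5 were over 1.5-fold and 3 over 2-fold apart, where 5.68% and 1.37% of all genes were. Hspa1b had 54.9 and 220 TPM and Hspa1a 22.5 and 87.8 TPM; these genes share reads, so their split is uncertain. Hspb1, named after its values were seen, was 2.46-fold higher in animal 2. Hspa8, the constitutive HSP70, was 1.56-fold higher in animal 2, whereas Hspa5 of the endoplasmic reticulum was 1.35-fold higher in animal 1. Of the 10 glucocorticoid-responsive genes, 0 were over 1.5-fold apart, with 6 toward animal 2 and 4 toward animal 1 (median 0.01). Zbtb16, a zinc finger factor, had the largest gap, 1.41-fold higher in animal 2 from 2284 and 3261 counts. Fkbp5 and Tsc22d3, like Dusp1 known to respond to the glucocorticoid receptor, were 1.24-fold and 1.23-fold higher in animal 1. Mt1, the most abundant of the 10, was 1.12-fold higher in animal 2 (1.05 to 1.19).

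**Figure D5:**
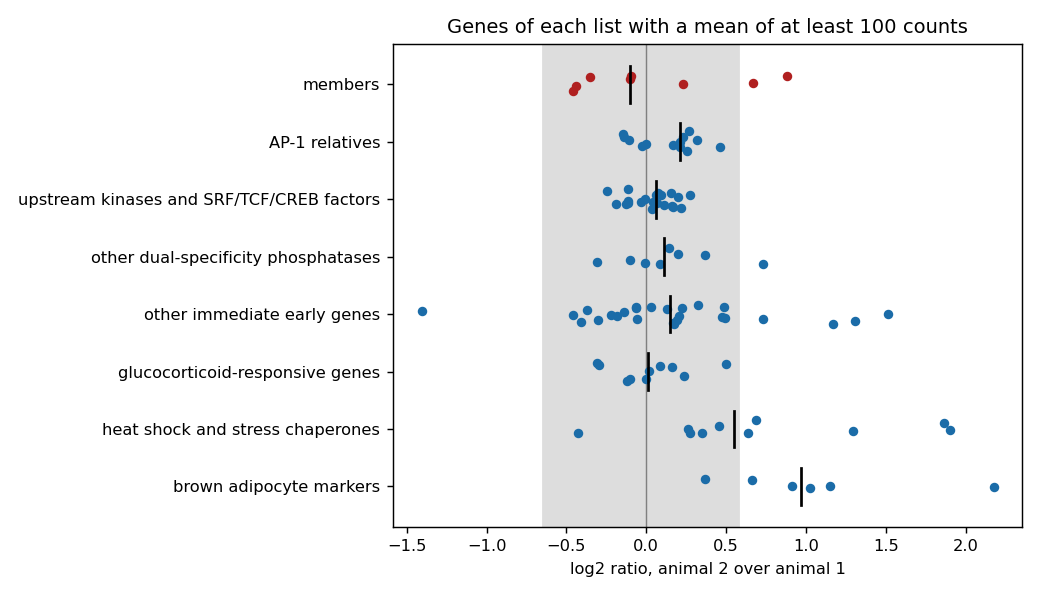
Log2 ratio (animal 2 over animal 1) of the members and of the genes of the lists drawn, for genes averaging 100 counts or more. The Egr relatives and all tissue markers other than the brown adipocyte ones, among them the kidney markers, are not drawn. Points are genes, black bars are list medians, and the grey band holds the central 95% of the 12171 genes. Fosb and Junb lie right of the band, and among the lists drawn the chaperones and brown adipocyte genes are spread furthest to the right.

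The glands also differed in markers of other tissue. Adrenal cortex markers summed to 16678 and 19174 TPM, with 6 of 8 higher in animal 2 (median 0.13), and medulla markers to 2107 and 1822 TPM, with 7 of 8 higher in animal 1 (median -0.32), so the labelled tissue was present. Brown adipocyte markers summed to 653 and 1270 TPM, with all 6 higher in animal 2 (median 0.97). Of these, 3 were over 2-fold apart, Ppargc1a, Elovl3 and Ucp1, where 1.37% of all genes were. Erythroid markers summed to 1133 and 1994 TPM, with 4 of 5 higher in animal 2. Kidney markers summed to 20.5 and 0.460 TPM, with 6 of 8 at 0 counts in animal 2. Macrophage markers had 7 of 8 higher in animal 1 (158 and 152 TPM). Endothelial markers (197 and 223 TPM, 7 of 8 higher in animal 2), mural markers (80.7 and 86.9 TPM, 6 of 7) and stromal markers (157 and 178 TPM, 3 of 6) went less far. The members are made in many cell types, and the part of these tissues in their levels and ratios was not tested.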

How the data were processed

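For each library the authors deposited a gene table and a transcript table with an expected count (a fractional estimate of read pairs) and TPM, and a second transcript table with estimated counts and TPM. Per the labels, all used mm10 and GENCODE M21. Column names in the file headers are those of RSEM and kallisto. Aligner, versions and filters: not given in the sources used here. Each transcript's percent within its gene was deposited for the first table only; for the second it was computed. The deposited bounds of a TPM interval, recorded as a score, were read but not printed.

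Expected counts were rounded for scaling (TMM of edgeR 4.0.16, factors 1.02 and 0.981). Log2 ratios used a prior of 0.5 counts, and 95% intervals are exact Clopper-Pearson intervals of a gene's share of the counts in both libraries. All 55536 gene rows matched M21; spike-in and other rows that name no gene held 0.909% and 0.76% of counts and stayed out. A gene at 0 counts allows up to 3 counts, or 0.0877 and 0.0834 CPM. The libraries are not 1 library deposited in duplicate (chi-square per gene 108.2 over 12171 genes). They were kept as separate replicates because the labels number them so; the chi-square does not show that they come from different animals. Reads of CAST alleles were counted on C57BL/6J sequence. Motifs were searched on both strands in the 250 bases before each RefSeq start.

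The members and lists were chosen with earlier results of these data known. Named genes are the 10 members, in each list the 3 of highest mean TPM and, among those with 100 mean counts, the 2 with the largest ratio, and the 3 nearest to Fos by level. Not every gene the rule selects is described. Any other gene is named because of its values or to complete a small family.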

Additional observations from a re-analysis of the deposited data

How the results depend on the processing

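The count of members over 2-fold apart was 0 of 10 with trimmed-mean scaling, DESeq2 size factors (version 1.42.0), TPM and a prior of 5 counts. It was 1 with ERCC scaling (Junb), 1 with scaling to nuclear protein-coding counts (Fos, log2 ratio -1.01) and 1 in the second quantification (Fos). Of all genes averaging 100 counts or more, 1.68%, 1.46% and 1.37% were over 2-fold apart in these settings, in that order. Fos averaged under 100 counts, so these shares are not a like background for it. Called over 1.5-fold, the count of members was 3 (Fos, Fosb and Junb), again with Fos averaging under 100 counts. Among genes at or above that minimum, 2 of 8 members and 5.68% of all genes passed 1.5-fold. The median log2 ratio of the members, -0.10, was 0.10 with ERCC scaling, 0.11 with TPM and -0.15 with protein-coding scaling. ERCC scaling and TPM moved the median of all genes by 0.20 and 0.10. The summed level of 290.4 TPM was 485 in the second quantification, and 284 to 297 with either animal left out. A ratio cannot be computed with an animal left out. The share of all genes over 2-fold apart, 1.37%, was 5.28% with a minimum of 10 counts and 23.9% with no minimum. Of all results and settings compared, 112 kept their value within the spread or interval and 43 moved. Settings that left an animal out could not move, since with 2 libraries each value lies within the SD of their mean. Nor could the shares of genes measured as 1 transcript, which were 100% throughout. The tally therefore does not measure how robust the results are. The retained-intron share was looked at after seeing the data. No paired analysis was possible because the labels give 1 group. With 2 libraries, neither the spread of a ratio nor a gap of Atf3 could be resolved.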

Other observations

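The genes whose levels lay nearest to those of Fos in both libraries, by distance over log2(TPM + 1), were Kcne4, a potassium channel subunit (2.00 and 1.10 TPM), Hif3a, a hypoxia-inducible factor subunit (1.98 and 1.11 TPM), and Myh14, a non-muscle myosin heavy chain (2.13 and 1.10 TPM). With 2 libraries such likeness describes levels only. Egr3, named after its values were seen, had 29 and 57 counts, below the minimum used to read gaps against all genes. It was 1.93-fold higher in animal 2 (1.22 to 3.15), opposite to Egr1. Its log2 ratio was 0.95, and 0.70 in the second quantification. Egr2, at 19 and 14 counts, had the direction of Egr1, with an interval from 0.652 to 2.96. Egr4, at 0 and 2 counts, had the direction of Egr3. With so few counts, no contrast within the Egr group is read from them. Nr4a3 (32.9 and 59.4 TPM, 1.41-fold) and Ppp1r15a (12.6 and 20.1 TPM, 1.39-fold), also named after their values were seen, were higher in animal 2, while Klf2 (906 and 689 counts, 1.33-fold) and Klf6 (1450 and 1064 counts, 1.38-fold) were higher in animal 1.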
